A study of Homo sapiens with 4 samples.

Results

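RNA carried by extracellular vesicles (EVs) is usually measured relative to a reference, because vesicle preparations differ in the amount of RNA they yield. The 6 miRNAs described here, hsa-miR-16-5p, hsa-miR-103a-3p, hsa-miR-191-5p, hsa-miR-423-5p, hsa-miR-425-5p and hsa-miR-484, are often used as such references in vesicle and plasma studies. They were chosen by name and not by a cut on their values, though earlier results of these data were known. The deposited small RNA table held 2588 mature miRNA names, of which 765 had a read in either library. The study's methods name none of them as a normaliser. The EVs came from untreated PC3 cells, a prostate cancer (PCa) cell line derived from a bone metastasis, which were grown in medium with exosome-free bovine serum while EVs were collected. The labels describe isolation of the EVs by qEV columns, and the study's methods name the exoEasy Maxi kit as well as these columns. Both small RNA libraries are biological replicates of this single condition, so their comparison describes stability and tests no treatment. Because both columns of the table bear one name, no replicate number could be given, and column order alone sets which library is termed first or second. The first held 154185 miRNA counts and the second 113185. Levels are given as counts per 1000000 miRNA counts (CPM), with 1 read worth 6.49 CPM at the depth of the first library and 8.84 CPM at that of the second. The level of 3 reads, taken as the smallest that can be shown, was 19.5 and 26.5 CPM. The titles of both total RNA samples bear the same preparation code, while their replicate numbers differ. The names of their deposited counts bear different codes, and the study's methods state that 2 biological replicates were sequenced. As these labels conflict, it is unclear whether the total RNA samples came from separate preparations, and their SDs may be technical. In these total RNA libraries, the epithelial keratin genes KRT8 (2130 CPM ± 220.1, SD, n = 2) and KRT18 (187 CPM ± 6.62, SD, n = 2) were detected. VIM, encoding vimentin (224 CPM ± 58.7, SD, n = 2), and CD44 (120 CPM ± 38.7, SD, n = 2) were detected too. No read was counted on KLK3, encoding prostate-specific antigen, which PC3 cells are known to lack.

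A miRNA is cut from one arm of a hairpin transcript, loaded into an Argonaute protein and guides it to messenger RNAs that pair with its seed, bases 2 to 8 of the mature strand. The arm named 5p or 3p that is loaded less often is mostly degraded. A reference miRNA for EVs is required to be abundant enough to measure and to keep a constant level between preparations. miR-16-5p belongs to the miR-15/16 family, known for targeting cell cycle and survival genes, and is abundant in red blood cells, so that it is often read as a sign of haemolysis in serum and plasma. miR-103a-3p is encoded in introns of pantothenate kinase genes, and miR-191-5p and miR-425-5p come from neighbouring hairpins of a single gene.

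RefSeq, on GRCh38.p14, held the mature sequences of 5 of the 6, shown to make clear which reads each name covers and which other names share its seed. Each is written 5′ to 3′ with the seed in capitals.
hsa-miR-16-5p: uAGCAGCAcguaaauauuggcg
hsa-miR-103a-3p: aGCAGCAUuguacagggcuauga
hsa-miR-191-5p: cAACGGAAucccaaaagcagcug
hsa-miR-423-5p: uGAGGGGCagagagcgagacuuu
hsa-miR-484: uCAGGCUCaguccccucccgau
The seeds of these 5 differ from one another. Their GC content ran from 45.5% in miR-16-5p to 63.6% in miR-484. miR-16-5p and miR-103a-3p are each encoded at 2 loci, so a read of the mature strand does not show which locus it came from. The loci of miR-16-5p are chr13:50049027-50049048 on the minus strand and chr3:160404754-160404775 on the plus strand, in introns of the lncRNA gene DLEU2 and of SMC4, a condensin subunit gene. Those of miR-103a-3p are chr5:168560904-168560926 on the minus strand and chr20:3917541-3917563 on the plus strand, in introns of PANK3 and PANK2. miR-191-5p lies at chr3:49020672-49020694 on the minus strand in an intron of DALRD3, whose introns also hold the hairpin of miR-425, 383 bases away from that of miR-191. miR-423-5p (chr17:30117095-30117117, plus strand) overlaps an exon of at least 1 transcript of NSRP1, a splicing regulator gene, and miR-484 (chr16:15643301-15643322, plus strand) one of NDE1, a centrosomal protein gene. Gene features are from GENCODE release 44.

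The 6 miRNAs spanned a wide range of levels in PC3 EVs, from 10008 CPM for miR-191-5p to 17.4 CPM for miR-484. Only miR-191-5p, miR-423-5p and miR-103a-3p had at least 10 reads in both libraries, the minimum used here to call a reference identified, and these 3 also had at least 100 reads in both. miR-191-5p was counted 1984 and 809 times, which is 12868 and 7148 CPM, a mean of 10008 CPM ± 4045 (SD, n = 2). It ranked 13 among all miRNA names by mean CPM. Together the 6 took 1.89% (95% Wilson interval 1.82 to 1.96%) of the first library's miRNA counts but 1.16% (1.10 to 1.23%) of the second's, and miR-191-5p alone made up 68.2% and 61.4% of their reads.

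miR-423-5p and miR-103a-3p formed a middle tier. miR-423-5p had 432 and 277 reads, or 2802 and 2447 CPM, a mean of 2625 CPM ± 250.7 (SD, n = 2), and ranked 28. miR-103a-3p had 424 and 217 reads, or 2750 and 1917 CPM, a mean of 2334 CPM ± 589 (SD, n = 2), and ranked 30. Their means differed by 291 CPM, less than the SD of miR-103a-3p. Within the first library the reads of miR-423-5p were 1.02 times those of miR-103a-3p (exact 95% interval 0.889 to 1.17), and in the second 1.28 times (1.06 to 1.53). All intervals on reads given here cover counting error only and leave out differences between preparations. They treat reads as independent. Amplified reads are not independent molecules, so the intervals may be too narrow even for counting error.

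miR-425-5p and miR-16-5p were far lower. miR-425-5p had 33 and 9 reads, or 214 and 79.5 CPM, a mean of 147 CPM ± 95.1 (SD, n = 2), and ranked 122. miR-16-5p had 32 and 5 reads, or 208 and 44.2 CPM, a mean of 126 CPM ± 115.5 (SD, n = 2), and ranked 129. The means of this pair differed by 20.9 CPM, less than either SD, while the gap from miR-103a-3p down to miR-425-5p, 2187 CPM, exceeded both SDs. miR-484 had 4 reads and 1 read, or 25.9 and 8.84 CPM, a mean of 17.4 CPM ± 12.1 (SD, n = 2). It had 1 read more than the smallest level that can be shown in the first library and fewer reads than that level in the second, and 5 other names had the same pair of counts. The difference between miR-16-5p and miR-484, 108 CPM, was less than the SD of miR-16-5p. The order of the 6 was the same in both libraries.

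**Figure D1:**
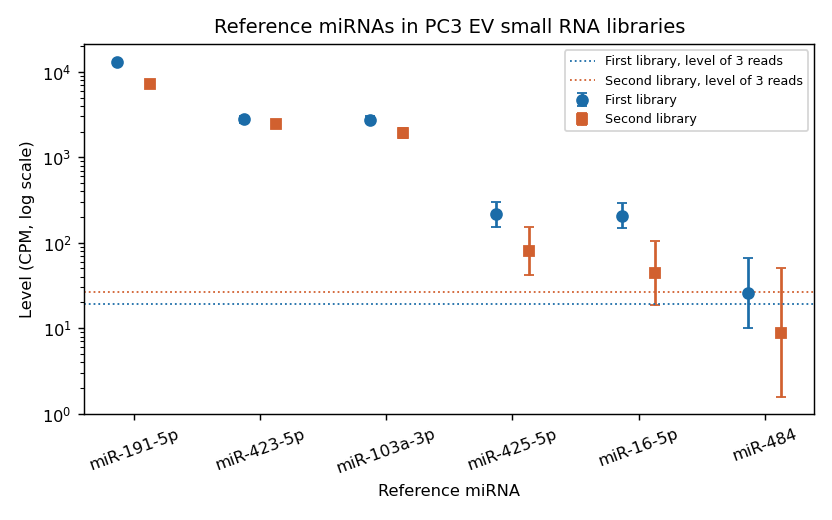
Level of each reference miRNA in CPM on a log axis, for the first (circles) and second (squares) small RNA library of PC3 EVs, with 95% Wilson intervals as bars and the level of 3 reads as dotted lines. The levels fall in tiers, with miR-191-5p highest, miR-423-5p and miR-103a-3p between 1917 and 2802 CPM, and miR-484 near the dotted lines, and on the CPM scale each square lies below its circle.

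Names next to these references in rank were also within their spread. By mean CPM miR-191-5p stood between miR-151a-3p (10484 CPM ± 1380, SD, n = 2) and let-7b-5p (9980 CPM ± 332, SD, n = 2). miR-6073 (2543 CPM ± 64.8, SD, n = 2) lay between miR-423-5p and miR-103a-3p. miR-222-3p stood just above miR-423-5p and let-7d-5p just below miR-103a-3p. miR-425-5p lay between miR-566 and miR-30e-3p, and miR-16-5p between miR-105-5p and miR-619-5p. In each case the distance from the reference to its neighbour was less than the SD of the reference.

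Every one of the 6 had a lower CPM in the second library than in the first, although for miR-423-5p the sign turned under another scaling given further on. This direction was also the usual one, since 70.7% of the 208 miRNAs whose reads in both libraries came to 10 or more were lower in the second. A difference of 1.5-fold, the size counted as a change here, was exceeded by 4 of the 6, all downward, namely miR-191-5p, miR-425-5p, miR-16-5p and miR-484. Of the 208 miRNAs, 41.3% passed that size in either direction and 34.1% downward. The 208 include 5 of the 6 references, as miR-484 had 5 reads in all, and 3 of these 5 passed it downward. Where both libraries held 100 or more reads, which was so for 45 miRNAs, 17.8% passed it, and miR-191-5p was the single reference that did. The median ratio of the second library over the first was 0.463 for all 6 references. It was 0.555 for the 5 references among the 208, and 0.789 for the 208. Where both libraries held at least 100 reads, it was 0.697 for the 3 references and 0.872 for the 45. With single libraries on each side there is no test of these ratios, and the members are described against these shares.

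miR-423-5p was the most even of the 6. Its CPM ratio was 0.873 (exact 95% interval 0.748 to 1.02), an interval that includes 1, and its coefficient of variation (SD over mean) was 9.55%. Of the 45 well-covered miRNAs, it took place 14 when these were ordered by how near their CPM ratio was to 1. This order holds for the CPM scale only. The other scalings given further on shift every ratio and so change its distance from 1. miR-103a-3p had a ratio of 0.697 (0.589 to 0.823), a coefficient of variation of 25.2% and place 36 in that order. miR-191-5p, the most abundant, had a ratio of 0.555 (0.511 to 0.603), a coefficient of variation of 40.4% and place 41 of 45. The biological coefficient of variation over the 208 miRNAs, as estimated by edgeR from both libraries, was 21.7%. It was computed after edgeR's own scaling (TMM) and leaves out counting error. The coefficients of variation above are on the CPM scale and include counting error, so they cannot be set against it directly.

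The less abundant references differed more, with wide intervals. miR-16-5p had a ratio of 0.213 (0.0647 to 0.550), 4.70-fold lower in the second library, and 3 of the 208 miRNAs had a lower ratio. miR-425-5p had a ratio of 0.372 (0.156 to 0.794), and 14 of the 208 were lower. Both lie among the 66 miRNAs with 30 to 99 reads summed, whose median ratio was 0.752 with quartiles of 0.543 and 0.973. miR-484 had a ratio of 0.341 (0.00692 to 3.44), an interval that shows neither a change nor its absence. The interval lay wholly below 1 for 4 of the 6, miR-103a-3p, miR-191-5p, miR-425-5p and miR-16-5p, against 29.8% of the 208. Whether an interval leaves out 1 depends on depth, and among the 45 miRNAs with 100 or more reads in each library the share was 53.3%, against 2 of the 3 references at that depth.

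**Figure D2:**
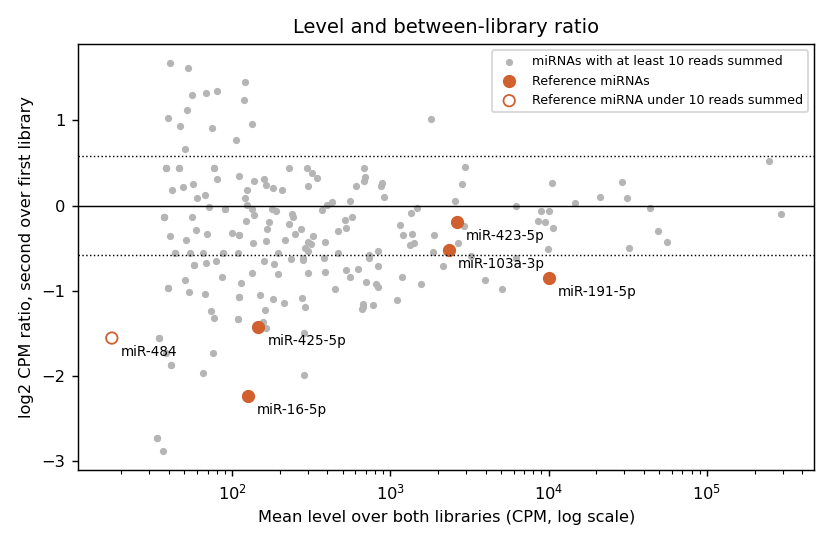
Log2 ratio of CPM, second over first library, against mean CPM on a log axis for 208 miRNAs that had 10 or more reads in all (grey), with 5 reference miRNAs as filled circles, miR-484 as an open circle and dotted lines at 1.5-fold. The references lie between -0.20 for miR-423-5p and -2.23 for miR-16-5p, all below 0 on the CPM scale, where most grey points also lie.

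The library total against which CPM is computed was itself uneven. miR-3182 and miR-4448, the most abundant names, held 50.5% of the first library's miRNA counts and 57.2% of the second's, and miR-4448 had a ratio of 1.43 (1.41 to 1.46). With both names left out of the total, every ratio rose by 0.21 on the log2 scale, and with TMM factors by 0.17 and with the median of ratios by 0.14. The ratio of miR-191-5p was then from 0.612 to 0.643 and that of miR-423-5p from 0.962 to 1.01, so the sign of the small difference of miR-423-5p depended on the scaling. miR-103a-3p, miR-191-5p, miR-425-5p, miR-16-5p and miR-484 were lower in the second library under each of these scalings.

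Ratios between pairs of references do not depend on the total, and they bear on whether the references moved together. Of the 15 pairs, 6 had a ratio that differed between the libraries beyond counting error. The share of such pairs among other miRNAs was not computed. This count, and the counts by reference below, therefore do not set the references apart from other miRNAs. miR-191-5p over miR-423-5p was 4.59 at first and 2.92 in the other library, a change of 0.636 times (exact conditional 95% interval 0.534 to 0.758). miR-191-5p over miR-103a-3p changed 0.797 times (0.661 to 0.962). For miR-423-5p over miR-103a-3p the change was 0.33 on the log2 scale, and the interval of 0.997 to 1.58 times includes 1. The other pairs beyond counting error were miR-16-5p with miR-191-5p, miR-423-5p and miR-103a-3p, and miR-423-5p with miR-425-5p. miR-423-5p over miR-16-5p changed most, 4.10 times (1.56 to 13.6). None of the 5 pairs with miR-484 did so, and with miR-423-5p the interval ran from 0.252 to 127 times.

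Counted by reference, miR-191-5p, miR-423-5p and miR-16-5p each changed beyond counting error in 3 of their 5 pairs, miR-103a-3p in 2 and miR-425-5p in 1. These counts depend on the reads of both partners, so a low count for miR-425-5p or miR-484 does not show that they kept their proportion to the others. No order of stability is given from the pairs, because with 2 libraries the usual pairwise measure is lowest for the references in the middle of the set by arithmetic.

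miR-191-5p and miR-425-5p share a transcription unit, but their reads did not match in amount. miR-191-5p exceeded miR-425-5p by 5.91 and 6.49 on the log2 scale in the first and second library. The change between libraries, 0.58 on that scale, had an interval of 0.696 to 3.57 times, so a change in their proportion was not detectable at this depth.

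The opposite arms of the hairpins gave a measure that is independent of the total. MIR423 was the one hairpin of the 5 with both arms well covered. Its sequence (chr17:30117079-30117172, plus strand, RefSeq on GRCh38.p14) is shown with miR-423-5p and then miR-423-3p in capitals, because both arms were counted in similar numbers.
MIR423: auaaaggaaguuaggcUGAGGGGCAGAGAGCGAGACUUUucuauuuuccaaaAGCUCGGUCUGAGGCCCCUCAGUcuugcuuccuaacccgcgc
miR-423-3p had 339 and 170 reads, 1850 CPM ± 493 (SD, n = 2), with a ratio of 0.683 (0.565 to 0.824). The 5p arm made up 56.0% (95% Wilson interval 52.5 to 59.5%) of the MIR423 reads at first and 62.0% (57.4 to 66.3%) in the other library. The odds of 5p against 3p were 1.28 times as high in the second library, with an exact conditional interval of 1.00095 to 1.63 that just leaves out 1.

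The opposite arms of miR-191-5p and miR-103a-3p gave no reads where they were analysed. No read of miR-191-3p was counted beside the 2793 of miR-191-5p, and no read of miR-103a-2-5p beside the 641 of miR-103a-3p. miR-103a-1-5p, the 5p arm of MIR103A1, was not analysed here. miR-425-3p had 2 reads and then 0, against 33 and 9 of miR-425-5p. For miR-16 the 3p arms also tell the loci apart, and both hairpins are shown with the shared 5p arm first and the distinct 3p arm second in capitals.
MIR16-1: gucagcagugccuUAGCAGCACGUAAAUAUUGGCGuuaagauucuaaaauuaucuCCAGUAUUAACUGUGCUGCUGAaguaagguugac
MIR16-2: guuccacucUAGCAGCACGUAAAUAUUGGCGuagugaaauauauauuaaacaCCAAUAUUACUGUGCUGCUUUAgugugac
miR-16-2-3p, from chromosome 3, had 16 and 3 reads, and miR-16-1-3p, from chromosome 13, had 0 and 1. The 5p arm was 66.7% (52.5 to 78.3%) of the first library's miR-16 reads and 55.6% (26.7 to 81.1%) of the second's. The arm share moved by less than these intervals, and the 3p arm of MIR16-2 had a ratio of 0.255 (0.0477 to 0.892), beside 0.213 for miR-16-5p.

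Other miRNAs with the same seeds were at or near the floor. miR-107, which differs from miR-103a-3p at 1 position, G22C counted from the 5′ end, had 2 reads in each library against 424 and 217.
hsa-miR-107: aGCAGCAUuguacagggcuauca
Reads that end before that base fit both names, and how SHRiMP hits to several names were shared out is not given in the sources used here, so the split between this pair is uncertain. Of the 6 other names with the seed of miR-16-5p, 4 had a read, with 6 and 4 reads in all. miR-15b-5p, whose hairpin neighbours MIR16-2 in SMC4, had 5 reads and 1 read, and miR-15a-5p, which neighbours MIR16-1 in DLEU2, had 0 and 1. miR-103b, annotated on the strand opposite to miR-103a-3p, had no read in either library. No other name in the RefSeq set searched shared the seed of miR-191-5p. That set held 2370 mature names and was not complete. miR-425-5p was missing, and the entries of 1 chromosome were left out before the search, so further names with these seeds could exist.

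miR-16-5p was low next to most of the references, though its mean CPM was above that of 83.1% of detected names. Its relation to red blood cell (erythroid) miRNAs was not tested, and their counts are given as a description. Of 4 erythroid names only miR-486-5p was counted, with 6 and 7 reads, and miR-451a, the defining one, had no read in either library, nor had miR-144-3p and miR-144-5p. Summed over the list this was 38.9 and then 61.8 CPM, a ratio of 1.59 whose interval of 0.457 to 5.72 includes 1. miR-223-3p, of platelets and myeloid cells, had no read. miR-122-5p, the liver miRNA of serum, had 39 and 26 reads, 241 CPM ± 16.4 (SD, n = 2), a mean above those of miR-16-5p and miR-425-5p. The origin of these reads was not tested.

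A further 21 miRNAs often used as references had a read in both libraries each, and 18 had at least 10 reads in both. In the second library 20 of the 21 were lower, 11 of them past 1.5-fold, and none was higher by that size. The median ratio was 0.664, from 0.253 for miR-22-3p to 1.07 for let-7a-5p. Those with at least 100 reads in both numbered 8. let-7a-5p was the highest of them, at 31248 CPM ± 1440 (SD, n = 2) with a ratio of 1.07 (1.02 to 1.11). miR-320a, a miRNA made without Drosha cleavage, had 8911 CPM ± 257 (SD, n = 2) and a ratio of 0.960 (0.884 to 1.04), and let-7i-5p had 8508 CPM ± 762 (SD, n = 2) and 0.881 (0.809 to 0.958). miR-92a-3p, at 9843 CPM ± 2425 (SD, n = 2), had 0.703 (0.649 to 0.762), close to miR-103a-3p. The intervals of let-7a-5p and miR-320a lay wholly above that of miR-191-5p, at levels of the same order or higher.

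Of the 45 well-covered miRNAs, the 5 whose CPM ratio was nearest to 1 were picked by that value, which depends on the scaling. These 5 are given as a description. They were miR-183-5p with 956 and 701 reads and a ratio of 0.999 (0.905 to 1.10), miR-3135b, miR-658, miR-182-5p and miR-6073. miR-183-5p and miR-182-5p, known to be transcribed together, had mean levels of 6197 and 14669 CPM, and the latter had a ratio of 1.02 (0.961 to 1.09).

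**Figure D3:**
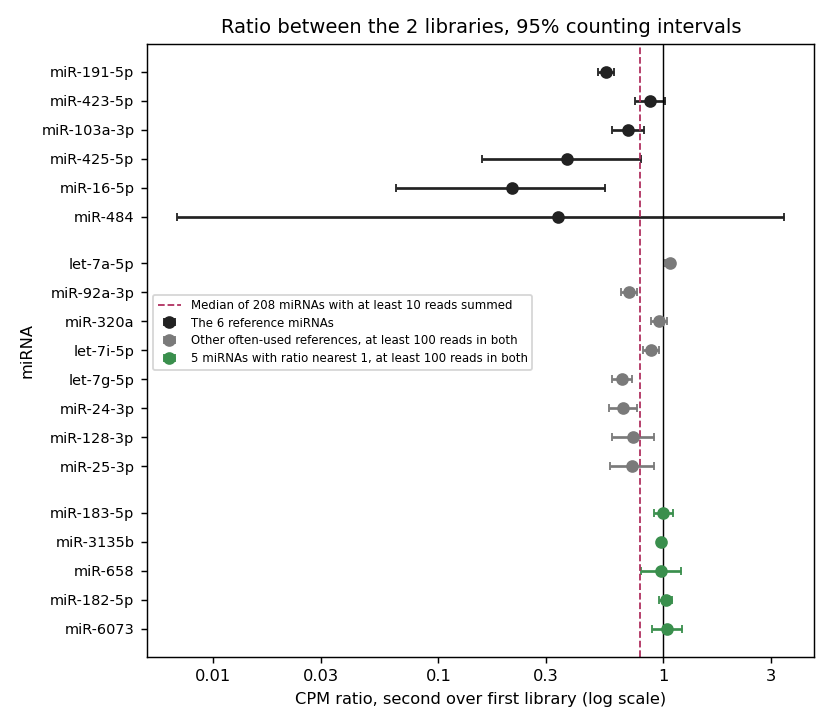
CPM ratio of the second over the first library on a log axis, with exact 95% counting intervals, for the 6 references (black), the 8 other often-used references with at least 100 reads in both libraries (grey) and the 5 miRNAs nearest to 1 (green). The solid line marks 1 and the dashed line the median of 0.789 over 208 miRNAs, and the interval of miR-191-5p (0.511 to 0.603) lies left of both.

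To show what the choice of reference does to a measured miRNA, miR-21-5p, the miRNA that the study followed from EVs into osteoblasts by qPCR, was divided by each reference in turn. It had 5831 and 3031 reads, and the choice was made after its values were seen. Against the total its ratio between libraries was 0.708 (0.677 to 0.740). Divided by miR-423-5p it was 0.811 (0.691 to 0.952), and by miR-103a-3p 1.02 (0.855 to 1.21). Divided by miR-191-5p it was 1.27 (1.16 to 1.40), and by miR-16-5p 3.33 (1.28 to 10.9). miR-21-5p was thus lower in the second library relative to the total and to miR-423-5p, and higher relative to miR-191-5p and miR-16-5p, beyond counting error in each case. With miR-425-5p or miR-484 as the divisor the interval included 1. The geometric mean of all 6 gave 1.55, and that of the 3 with at least 100 reads in both gave 1.02. These libraries are replicates of one condition, so no divisor can be called right from them.

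**Figure D4:**
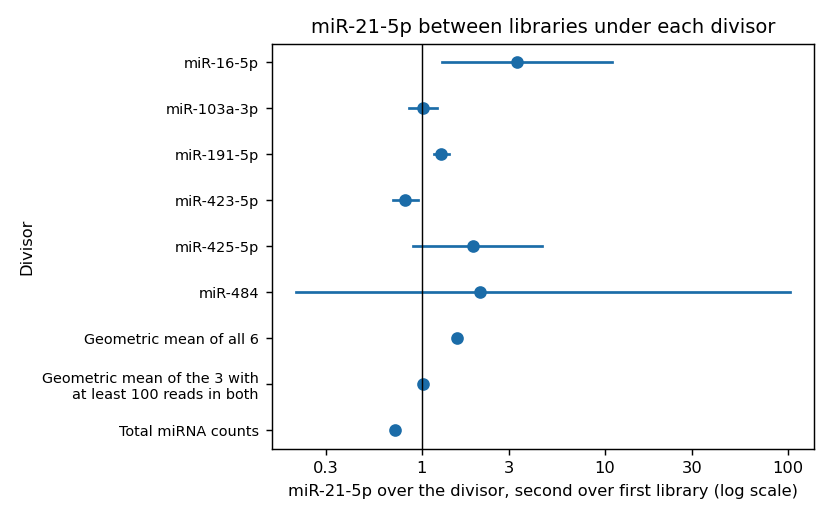
Ratio of miR-21-5p between the libraries, second over first, on a log axis, after division by each reference, by geometric means of references or by the total miRNA counts, with exact 95% counting intervals where a single divisor allows one. The values run from 0.708 with the total to 3.33 with miR-16-5p, on both sides of 1.

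How alike the libraries appeared depended on which references set the scale. With the geometric mean of the 6 as divisor, the median ratio of the 208 miRNAs was 1.73 in place of 0.789, and 136 passed 1.5-fold in place of 86. That divisor weighs all 6 alike, including miR-484 with 4 reads and 1 read. It therefore carries their counting error, for which no interval is given. With the geometric mean of the 3 best covered, the median was 1.13 and 83 passed 1.5-fold, close to the count with the total.

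The total RNA libraries, with 489170 and 475942 gene counts, were made from the same kind of EVs but are not on a scale with the small RNA libraries. Of the 8 hairpin genes of the references, 6 were in the gene table and none had a read in either replicate. Each of these hairpins lies within a larger gene on the same strand. How reads that fit both were counted is not given in the sources used here. The lack of reads therefore does not show that the hairpins were absent from the EVs. Of the 7 genes that hold the hairpins, DLEU2, SMC4 and DALRD3 had reads in both replicates. DALRD3, which holds MIR191 and MIR425, was the highest, with 19 reads in replicate 1 and 64 in replicate 2, 86.7 CPM ± 67.6 (SD, n = 2). At MIR191, NDUFAF3 lies on the strand opposite to DALRD3. The strand setting of the counting is not given in the sources used here, so reads of overlapping genes cannot be told apart. SMC4 had 6 and 25 reads, 32.4 CPM ± 28.5 (SD, n = 2), and DLEU2 had 8 and 9, 17.6 CPM ± 1.81 (SD, n = 2). PANK3 had 8 and 0 reads, PANK2 0 and 9, NSRP1 24 and 0, and no read was counted on NDE1. In these libraries 3 reads equal 6.13 and 6.30 CPM.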

How the data were processed

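EVs of PC3 cells were profiled in 2 small RNA libraries (TruSeq small RNA) and 2 stranded total RNA libraries. The small RNA counts deposited by the authors are raw and per mature miRNA name, from SHRiMP alignments of reads trimmed by Cutadapt. Reads of total RNA were mapped by them to GRCh38 and counted per Ensembl gene in HTSeq, whose rows of reads set aside were left out of totals here. Tool versions, the miRBase release and the handling of reads that fit several names are not given in the sources used here.

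The 6 miRNAs, the gene and miRNA lists and the comparisons were chosen with earlier results of these data known. Counts were scaled to CPM, 1000000 times the count over the library total. The total RNA files were tied to replicates by the sample descriptions. Shares carry 95% Wilson intervals, ratios between libraries exact conditional binomial intervals (Clopper-Pearson), and pair ratios exact conditional intervals of the odds ratio. As each assay has 1 condition, no p-value was computed. The interval code was tested on simulated data. The miRNAs named are the 6, their opposite arms, detected names with the same seed, the names next in rank by mean CPM, the 5 with at least 100 reads in both libraries and a ratio nearest to 1, the 2 most abundant, the host genes, 21 other references (described by counts, with up to 6 named) and the listed marker miRNAs and genes, of which a gene is not reported here. miR-21-5p and the remaining names were chosen after their values were seen. Sequences are from RefSeq. TMM factors and dispersion came from edgeR 4.0.16 and median-of-ratios factors from DESeq2 1.42.0 in R 4.3.3, and other values from Python 3.11.15 with pandas 2.3.3, numpy 2.4.6, scipy 1.17.1 and matplotlib 3.10.9. The alternatives were these scalings, a total without the 2 most abundant names, other count minimums and folds, a pseudocount, reference divisors and each library alone.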

Additional observations from a re-analysis of the deposited data

How the results depend on the processing

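No paired analysis was possible because there is no second condition to pair with and the miRNA columns are unnumbered. Without miR-3182 and miR-4448 in the total, levels in CPM of the remaining counts were 261 for miR-16-5p, 5018 for miR-103a-3p, 21349 for miR-191-5p, 5691 for miR-423-5p, 309 for miR-425-5p and 36.5 for miR-484, and TMM or median-of-ratios scaling moved no level by as much as its SD. With single libraries, levels ran from 44.2 to 208 CPM for miR-16-5p, 1917 to 2750 for miR-103a-3p, 7148 to 12868 for miR-191-5p, 2447 to 2802 for miR-423-5p, 79.5 to 214 for miR-425-5p and 8.84 to 25.9 for miR-484. The between-library ratio of miR-191-5p was 0.626 with TMM, 0.612 with the median of ratios and 0.643 without the 2 names. Divided by the geometric mean of the other 5 references, the ratio rose above 1 for 3 references, to 1.66 for miR-103a-3p, 1.26 for miR-191-5p and 2.18 for miR-423-5p, and stayed below 1 for miR-425-5p, miR-484 and miR-16-5p. Each sign only shows whether a reference's CPM ratio lay above or below the geometric mean ratio of the other 5. Why the references differed was not tested. The number of references past 1.5-fold, 4, was 4 with TMM, the median of ratios and the total without the 2 names, and 5 or 3 with a lower or higher fold. It was not counted with reference divisors. The number of all miRNAs past 1.5-fold was 47 of 144 with at least 10 reads in both libraries, 163 of 386 with at least 1 read in both and 136 of 208 with the geometric mean of the 6 as divisor, against 86, while the geometric mean of the 3 best covered gave 83 of 208. References identified numbered 6 with at least 1 read in both libraries, 5 with at least 3 and from 3 to 5 with 1 library alone. The miR-21-5p ratios with each divisor, chosen after seeing the data, were 3.33 with miR-16-5p, 1.02 with miR-103a-3p, 1.27 with miR-191-5p, 0.811 with miR-423-5p, 1.91 with miR-425-5p, 2.08 with miR-484, 1.55 with all 6 and 1.02 with the 3 best covered, against 0.708. At this depth the levels and ratios of miR-484, with 5 reads in all, carry little information.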
